A study of Mus musculus with 9 samples.

Results

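The genes described here are 9 members of the interferon pathway: the signalling factors Stat2, Irf1, Irf7 and Irf9, the interferon-stimulated genes Ifit1, Ifit3, Isg15 and Rsad2, and the RNA sensor Ddx58. They were taken by symbol from the 24012 genes of the expression table, and all 9 were found. No cut on a measured value was used, but the choice was made with earlier results of these data known. The study sequenced RNA from mouse pancreatic ductal adenocarcinoma (PDAC) cells that carried GFP and a Gstt1-mCherry reporter and were recovered from the lungs of mice after injection into the tail vein. mCherryLow and mCherryHigh cells were sorted at 6 weeks for a weak or strong reporter signal, with 3 libraries each, numbered 1, 5 and 6 in the labels. The 3 DTC libraries, numbered 1 to 3, were sorted at 5 days on GFP alone. The labels give 1 genotype for all groups, SIRT6F/F/p48-Cre/p53F/+KrasL/+, in which p48-Cre is a pancreatic Cre driver, so no group has intact alleles to compare with. Whether each library came from its own mouse is not stated, so p-values measure the spread between libraries, which may be technical. Time, sorting gate and the prefix of the library codes in the description field of the labels all differ between DTC and the other groups, and the 3 cannot be told apart.

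Type I interferons bind a receptor whose Janus kinases phosphorylate STAT2. STAT2 and IRF9 are subunits of a complex, ISGF3, that binds interferon-stimulated response elements (ISRE) in promoters and turns on genes that limit viral replication. Interferon gamma acts mainly through a different element, the gamma-activated site (GAS), and IRF1 is a classical target of it. In tumours the pathway is known both for drawing in immune cells and, when its activity is chronic, for tumour cell states that resist therapy.

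Promoter sequences of the members show these elements. All 9 members matched a RefSeq promoter entry (GRCm38.p6), in 11 windows that run from 250 bases before a start site to 50 bases after it. Of the 9, 6 held at least 1 ISRE, searched on either strand as GAAA, any 2 bases and GAAA again, while 3.44% of 32851 windows of the same length did. The GAS letters, TTCNNNGAA, were found in 1 member, Irf1, and in 8.30% of all windows. The 250 bases before the start are printed 5′ to 3′ on the gene's strand for 5 members that hold an element and differ in how the groups compare, with the matched letters in capitals.
Stat2, chr10:128270248-128270497, plus strand: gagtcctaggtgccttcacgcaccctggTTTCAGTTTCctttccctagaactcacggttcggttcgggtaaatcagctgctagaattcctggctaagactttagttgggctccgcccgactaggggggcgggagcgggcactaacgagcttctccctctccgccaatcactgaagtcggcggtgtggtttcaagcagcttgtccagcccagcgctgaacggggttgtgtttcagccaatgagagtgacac
Irf1, chr11:53769764-53770013, plus strand: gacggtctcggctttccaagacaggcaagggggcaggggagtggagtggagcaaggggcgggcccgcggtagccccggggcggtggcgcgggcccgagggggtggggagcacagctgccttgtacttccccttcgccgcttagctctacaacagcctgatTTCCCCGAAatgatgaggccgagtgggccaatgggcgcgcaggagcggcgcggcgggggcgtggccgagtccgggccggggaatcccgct
Ifit1, chr19:34640639-34640888, plus strand: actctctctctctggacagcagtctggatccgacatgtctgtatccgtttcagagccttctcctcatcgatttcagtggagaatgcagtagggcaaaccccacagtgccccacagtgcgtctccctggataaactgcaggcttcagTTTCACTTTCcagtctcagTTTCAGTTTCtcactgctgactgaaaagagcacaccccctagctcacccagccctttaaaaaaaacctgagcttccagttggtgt
Ifit3, chr19:34583279-34583528, plus strand: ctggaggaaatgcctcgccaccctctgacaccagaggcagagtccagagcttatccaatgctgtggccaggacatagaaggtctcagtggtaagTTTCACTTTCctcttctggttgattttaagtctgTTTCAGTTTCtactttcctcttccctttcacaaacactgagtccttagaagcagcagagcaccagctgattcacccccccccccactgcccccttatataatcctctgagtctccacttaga
Isg15, chr4:156200819-156201068, minus strand: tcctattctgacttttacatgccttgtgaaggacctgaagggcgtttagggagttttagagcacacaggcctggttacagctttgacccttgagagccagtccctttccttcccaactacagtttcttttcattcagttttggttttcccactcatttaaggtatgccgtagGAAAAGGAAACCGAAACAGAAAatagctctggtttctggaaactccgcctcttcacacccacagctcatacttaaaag
In Stat2 the single ISRE begins 222 bases before the start. Ifit1 and Ifit3 each have a pair, at 104 and 85 bases in Ifit1 and at 156 and 122 bases in Ifit3, with the same 2 spellings in the same order. Isg15 has 3 matches, at 78, 72 and 66 bases, that overlap each other. The Irf1 capitals mark the GAS, 90 bases before the start. Rsad2 held 1 ISRE 120 bases before its start, and Ddx58 held 1 beginning 3 bases after its start. The windows of Irf7 and Irf9 held neither set of letters. A match is a description of the letters and was not tested for binding.

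Expression is given in CPM, the reads of a gene scaled to a common library total. Library totals ran from 643748 reads in mCherryHigh 1 to 11861241 in mCherryLow 6, and the DTC libraries held 923988 to 2052623. The limit used for a count of 0 is 3 reads, which is 4.66 CPM in mCherryHigh 1 and 0.253 CPM in mCherryLow 6, for counting error only. The exact two-sided Poisson intervals (95%) given for single values reach a little higher. Differences are on the log2(CPM + 1) scale with their standard error (SE), and a gene was called at a limma adjusted p under 0.05. Cell type markers were also at unlike levels in the groups. Summed macrophage and monocyte markers were 516 to 873 CPM in mCherryLow, 499 to 877 in mCherryHigh and 2253 to 5317 in DTC. There 10 of 15 were called higher than in mCherryLow (66.7%). Of all 18701 genes tested, 34.2% were called higher in that comparison, or 24.2% of those averaging 10 CPM or more. C1qb and C1qc, markers of tissue macrophages, were at 0 in every mCherryHigh library. Summed T and NK cell markers were 2.61 to 10.2, 6.43 to 10.9 and 79.9 to 394 CPM in the same order, with Cd3e at 0 in all mCherryLow libraries and Cd3g and Gzma at 0 in all mCherryHigh libraries. Plasmacytoid dendritic cell markers summed to 61.7 to 91.1, 53.8 to 115 and 204 to 297 CPM. Endothelial markers summed to 30.4 to 41.2, 47.0 to 55.9 and 247 to 509 CPM. Alveolar and airway markers summed to 9.58 to 24.0, 12.4 to 45.7 and 167 to 509 CPM. Of these 2 lists, 9 of 10 and 7 of 8 were called higher in DTC than in mCherryLow. B cell sums were also higher in DTC, while neutrophil sums and fibroblast and pericyte sums overlapped between the groups. Markers of duct and tumour epithelium were present in all libraries, at 1822 to 6075 CPM outside DTC, but ran from 464 CPM in DTC 3 to 6082 in DTC 2. DTC 3 had the highest macrophage and T cell sums of all. In these bulk samples, fewer cells of a type and less RNA per cell cannot be told apart.

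Of the 4 signalling factors, Stat2, Irf9 and Irf7 were called lower in DTC than in mCherryHigh, and Irf1 was not. Stat2, the subunit that gives ISGF3 its activation domain, had 177, 56.2 and 227 CPM in mCherryLow 1, 5 and 6. In mCherryHigh 1, 5 and 6 it had 132, 102 and 237 CPM, and in DTC 1, 2 and 3 it had 42.6, 51.2 and 53.0 CPM. The DTC values lay close together and below all 6 other libraries, although mCherryLow 5 came within a few CPM of them. Means were 154 ± 88.0, 157 ± 71.2 and 48.9 ± 5.55 CPM (SD, n = 3 each). Stat2 fell in DTC by 1.41 against mCherryLow (SE 0.49, limma adjusted p = 0.0366), which is 2.67-fold on that scale, and by 1.57 against mCherryHigh (SE 0.41, limma adjusted p = 0.0151). The first of these calls was lost on leaving out mCherryLow 1, mCherryLow 6, DTC 1, DTC 2 or DTC 3, with limma adjusted p-values of 0.115, 0.145, 0.122, 0.0689 and 0.0646. The second was lost without mCherryHigh 6 (0.0697) or DTC 1 (0.0636). edgeR and DESeq2 on the recovered reads called both, with adjusted p-values of 0.00674 and 0.000880 against mCherryLow.

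Irf9, the DNA-binding subunit of ISGF3, followed Stat2 at a smaller size. Its values were 71.2, 66.8 and 137 CPM in mCherryLow 1, 5 and 6, and 137, 76.2 and 119 CPM in mCherryHigh 1, 5 and 6. In DTC 1, 2 and 3 they were 44.1, 49.2 and 54.1 CPM, below every other library and with little spread (49.2 ± 4.98, SD, n = 3). The difference of DTC from mCherryHigh was −1.12 (SE 0.38, limma adjusted p = 0.0459), just inside the threshold. It was lost without any one of the 6 libraries, with limma adjusted p-values from 0.0502 without mCherryHigh 5 to 0.140 without DTC 1. Compared with mCherryLow, DTC was at −0.81 (SE 0.40, limma adjusted p = 0.120), which did not pass, whereas edgeR gave an adjusted p of 0.0181 and DESeq2 0.0185. Irf9 exons share a stretch of 123 bases with Rnf31 on the same strand. On the opposite strand, Irf1 exons share 100 bases with Gm17334 and Irf7 exons 45 with Phrf1. The counting rule for shared bases is not given in the sources used here.

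Irf7, which drives the second, amplifying wave of interferon production, had the widest spread of the 4. It was at 16.1, 40.2 and 229 CPM in mCherryLow 1, 5 and 6, at 101, 55.0 and 232 in mCherryHigh 1, 5 and 6, and at 48.0, 26.3 and 4.33 in DTC 1, 2 and 3. The value of DTC 3 rests on 4 reads, with an exact Poisson interval (95%) of 1.18 to 11.1 CPM. All DTC values lay below all mCherryHigh values, while DTC and mCherryLow overlapped. Irf7 fell by 2.51 in DTC against mCherryHigh (SE 0.77, limma adjusted p = 0.0308). That call was lost without mCherryHigh 6 (0.0945) and without DTC 3 (0.0876). Compared with mCherryLow, the value of −1.50 did not pass (SE 0.94, limma adjusted p = 0.216).

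Irf1, a factor induced early by interferon gamma, did not follow the other 3. Its values were 116, 36.9 and 117 CPM in mCherryLow 1, 5 and 6, and 200.4, 91.2 and 180.4 CPM in mCherryHigh 1, 5 and 6. In DTC 1, 2 and 3 they were 166, 183 and 84.4 CPM, within the range of mCherryHigh but for DTC 3 and overlapping mCherryLow. The differences of DTC were 0.78 against mCherryLow (SE 0.50, limma adjusted p = 0.224) and −0.12 against mCherryHigh (SE 0.43, limma adjusted p = 0.857), and neither passed. The sign of the second turned under quantile normalization and without mCherryHigh 1, mCherryHigh 6 or DTC 3.

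**Figure D1:**
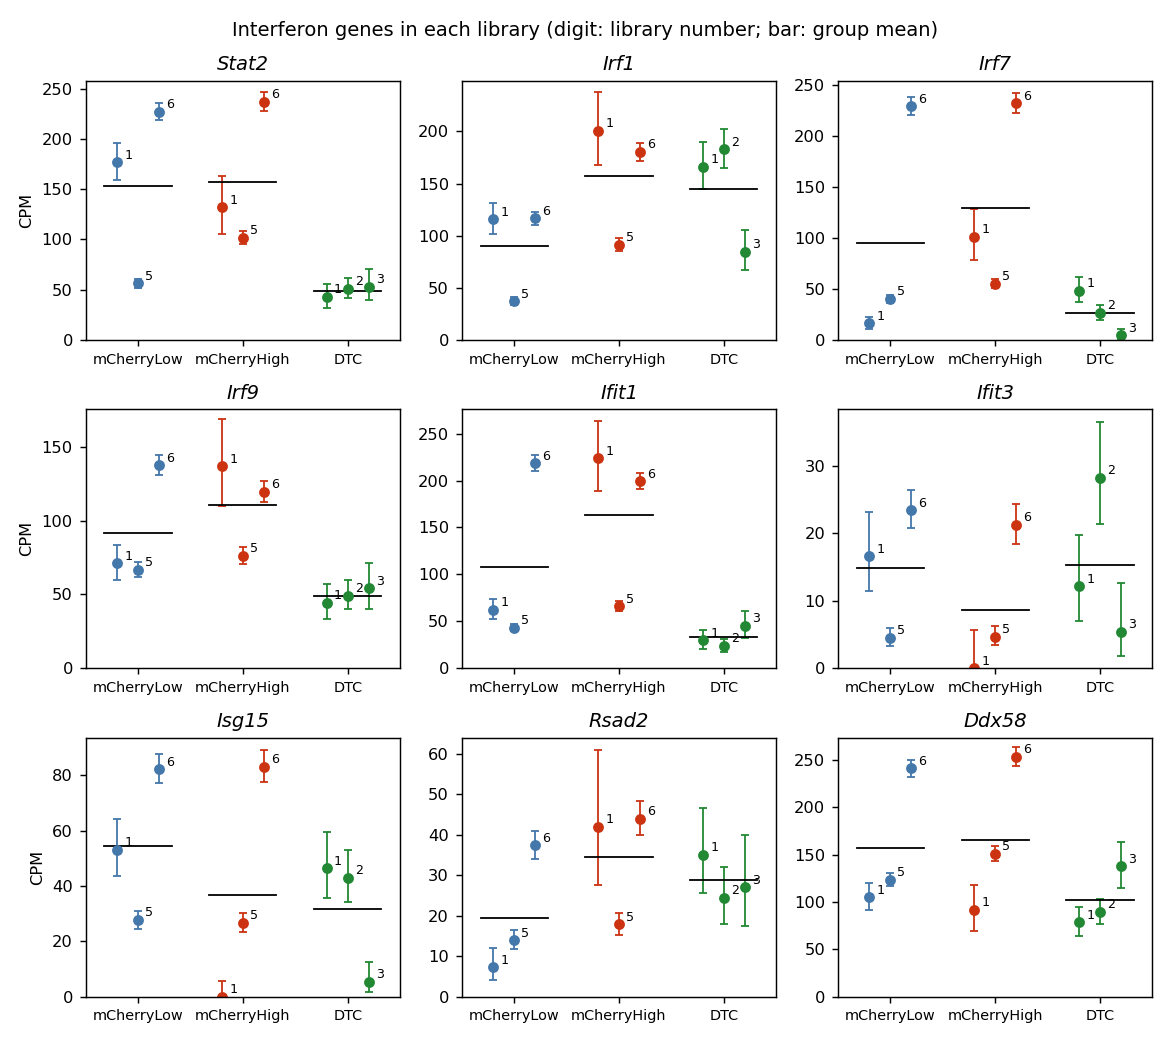
CPM (vertical axes, from 0) of the 9 interferon members in each of the 9 libraries, with exact 95% Poisson intervals from recovered reads as whiskers and a bar at each group's mean. Stat2 and Irf9 sit lower in all 3 DTC libraries than in the other 6, and mCherryLow 6 is the highest mCherryLow library in all 9 panels.

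Among the effectors, Ifit1 was the member whose difference held in most settings. Ifit1, which binds viral RNA that lacks the host's cap methylation, had 62.4, 43.5 and 218 CPM in mCherryLow 1, 5 and 6 and 224, 66.1 and 199 CPM in mCherryHigh 1, 5 and 6. It had 29.7, 23.9 and 45.5 CPM in DTC 1, 2 and 3. Every DTC value lay below every mCherryHigh value, and DTC 3 lay just above mCherryLow 5. Ifit1 fell by 2.14 in DTC against mCherryHigh (SE 0.51, limma adjusted p = 0.0107), 4.40-fold on that scale, from 163 ± 84.8 to 33.0 ± 11.2 CPM (SD, n = 3 each). This call held under every alternative run, leaving out each library included. Against mCherryLow the difference of −1.38 missed the threshold (SE 0.57, limma adjusted p = 0.0682), and it passed without mCherryLow 5 (0.0244), under median-of-ratios scaling (0.0257), with edgeR (0.0126) and with DESeq2 (0.00421).

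Ifit3, a partner of Ifit1 in RNA binding, was low everywhere. It had 16.6, 4.51 and 23.4 CPM in mCherryLow 1, 5 and 6, 0, 4.69 and 21.3 in mCherryHigh 1, 5 and 6, and 12.2, 28.3 and 5.41 in DTC 1, 2 and 3. The groups overlapped fully, and the differences of DTC were 0.02 against mCherryLow (SE 0.73, limma adjusted p = 0.984) and 1.43 against mCherryHigh (SE 1.04, limma adjusted p = 0.321). Its count is uncertain: 48.8% of its windows of 50 bases occur nowhere else in the transcripts, and the rest are shared with Ifit3b. Ifit3b, listed under an older name, had 0, 19.2 and 98.3 CPM in mCherryLow 1, 5 and 6, 0, 19.5 and 90.4 in mCherryHigh 1, 5 and 6, and 6.85, 4.87 and 4.33 in DTC 1, 2 and 3. Ifit1 shares fewer of its windows, 92.9% being its own.

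Isg15, a ubiquitin-like protein that is attached to other proteins, was at 53.1, 27.7 and 82.1 CPM in mCherryLow 1, 5 and 6. It was at 0, 26.6 and 83.0 CPM in mCherryHigh 1, 5 and 6, and at 46.4, 42.9 and 5.41 CPM in DTC 1, 2 and 3. The 0 in mCherryHigh 1 has a 3-read limit of 4.66 CPM and an exact Poisson interval (95%) that ends at 5.73 CPM, in a library where Ifit1 reached its highest value. The groups overlapped, and the differences of DTC were −1.09 against mCherryLow (SE 0.72, limma adjusted p = 0.243) and 0.84 against mCherryHigh (SE 1.37, limma adjusted p = 0.670). The second turned to −1.02 without mCherryHigh 1.

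Rsad2 encodes viperin, an enzyme that makes a chain-terminating nucleotide. It had 7.31, 14.0 and 37.3 CPM in mCherryLow 1, 5 and 6, 41.9, 17.9 and 43.9 in mCherryHigh 1, 5 and 6, and 35.0, 24.4 and 27.1 in DTC 1, 2 and 3. DTC lay inside the range of both other groups, with differences of 0.81 against mCherryLow (SE 0.58, limma adjusted p = 0.284) and −0.17 against mCherryHigh (SE 0.49, limma adjusted p = 0.822). Ddx58 encodes RIG-I, the cytoplasmic sensor of viral RNA ends, and is itself induced by interferon. It had 105, 124 and 241 CPM in mCherryLow 1, 5 and 6, 91.7, 151 and 253 in mCherryHigh 1, 5 and 6, and 78.4, 89.6 and 137 in DTC 1, 2 and 3. The groups overlapped, and its differences of −0.56 against mCherryLow (SE 0.41, limma adjusted p = 0.288) and −0.61 against mCherryHigh (SE 0.43, limma adjusted p = 0.305) did not pass.

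mCherryHigh and mCherryLow cells were compared to ask whether a strong Gstt1 reporter goes with another interferon state. No member passed: limma called 0 of 9, where 0% of 15437 genes were called. At an unadjusted p under 0.05 there were 0 members and 1448 genes (9.38%), and the smallest member p was 0.120, for Irf1. edgeR and DESeq2 also called 0 members, and DESeq2 called 148 genes (0.959%). The differences were positive for Irf7 (1.01, SE 0.93), Rsad2 (0.98, SE 0.65), Irf1 (0.90, SE 0.51), Ifit1 (0.76, SE 0.68) and Irf9 (0.31, SE 0.37), and negative for Isg15 (−1.93, SE 1.46) and Ifit3 (−1.41, SE 1.14). Stat2 (0.16, SE 0.55) and Ddx58 (0.06, SE 0.45) were close to 0, and their sign turned when the code prefix entered the fit. The groups overlapped for all 9 members, where 15.9% of genes had no overlap in either direction. The negative values of Isg15 and Ifit3 rest on the 0 counts of mCherryHigh 1, the library with the fewest reads. With libraries 5 and 6 alone, limma also called 0 members. In the wider interferon lists limma, edgeR and DESeq2 each called 0 genes. Ido1, an enzyme that breaks down tryptophan and is induced by interferon gamma, had the smallest unadjusted p, 0.0488, with means of 1.36 and 5.66 CPM in mCherryLow and mCherryHigh. Tmem173, the gene of the DNA-sensing adaptor STING, had means of 53.2 and 154 CPM in overlapping groups (limma adjusted p = 0.621).

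DTC cells were compared with both sorted groups. Against mCherryLow, 1 of 9 members was called lower (Stat2) and none higher, where 8.87% of 18701 genes were called lower and 34.2% higher. Among genes averaging 10 CPM or more, the share called lower was 13.2%. In 2 members, Stat2 and Irf9, all DTC values lay below all mCherryLow values, as they did in 14.2% of genes and in 20.8% of those averaging 10 CPM or more, so this count is near the background. edgeR called 4 members lower (Stat2, Irf9, Ifit1 and Ddx58), beside 16.6% of genes, and DESeq2 called 4 (Stat2, Irf7, Irf9 and Ifit1), beside 15.7%. Against mCherryHigh, 4 of 9 members were called lower (Stat2, Irf7, Irf9 and Ifit1) and none higher, where 7.19% of 19700 genes were called lower and 23.0% higher. The share called lower was 11.0% among genes averaging 10 CPM or more. The same 4 had no overlap with mCherryHigh, as had 13.2% of genes and 19.4% of those averaging 10 CPM or more. edgeR and DESeq2 each called these 4, beside 10.8% and 10.7% of genes. The 2 comparisons share the DTC libraries, and whether the difference from DTC is larger for one sorted group than for the other is the comparison of mCherryHigh with mCherryLow, in which 0 members passed.

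The counts moved with the scale, and on the deposited scale the median over all genes was above 0. The median difference of DTC from mCherryLow was −0.81 over the members and 0.59 over all genes, and from mCherryHigh it was −0.61 and 0.55. With quantile normalization the medians were −1.24 and −0.14 against mCherryLow, and −0.49 and −0.10 against mCherryHigh. With median-of-ratios scaling they were −1.16 and 0.30, and −0.80 and 0.39. The share of all calls that were higher in DTC moved from 79.4% to 52.7% and 65.2% against mCherryLow, and from 76.2% to 51.3% and 67.8% against mCherryHigh. The members' median stayed below that of all genes in each of these. The median over all genes includes low genes that reached the filter through DTC, and no median was taken over genes averaging 10 CPM or more. Within DTC, DTC 3 had the lowest value of 4 members, Irf1, Irf7, Ifit3 and Isg15, and the highest of 4, Stat2, Irf9, Ifit1 and Ddx58. The part of cell composition in these differences was not tested.

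**Figure D2:**
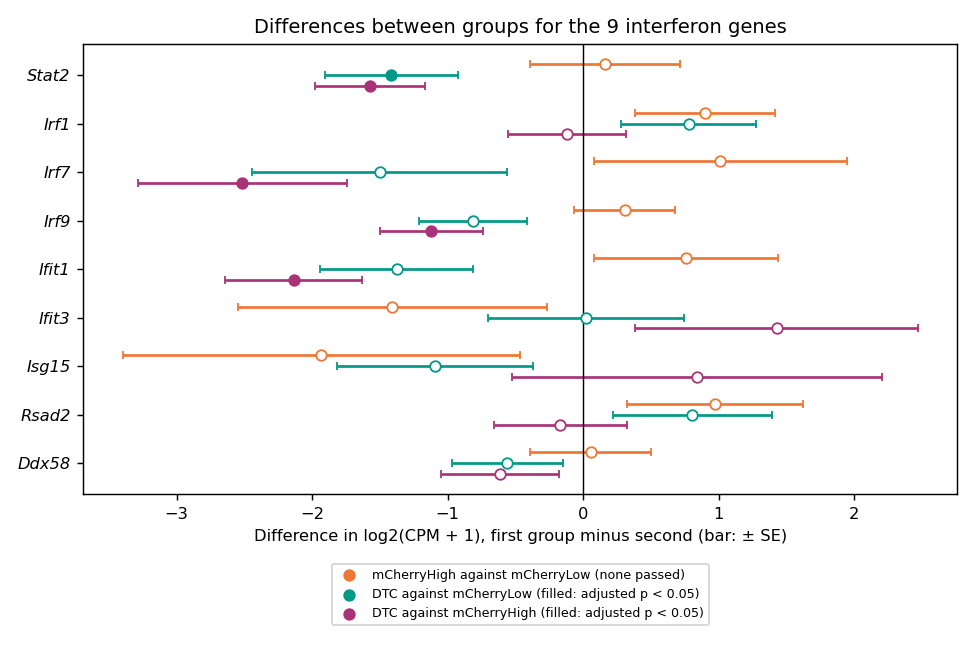
Differences on the log2(CPM + 1) scale (horizontal axis) for the 9 members in the 3 comparisons, with bars of 1 SE and filled points where the limma adjusted p was under 0.05. No point is filled for mCherryHigh against mCherryLow, 1 is filled for DTC against mCherryLow (Stat2) and 4 for DTC against mCherryHigh (Stat2, Irf7, Irf9 and Ifit1).

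The members varied more between libraries of one sorted group than between the sorted groups. Their summed level was 624, 413 and 1313 CPM in mCherryLow 1, 5 and 6, and 927, 590 and 1369 CPM in mCherryHigh 1, 5 and 6. In DTC 1, 2 and 3 it was 502, 518 and 417 CPM. mCherryLow 6 was the highest mCherryLow library for all 9 members, as it was for 34.2% of genes, and mCherryHigh 6 was the highest of its group for 6 members and mCherryHigh 1 for 3. The 4 deeply sequenced sorted libraries, numbered 5 and 6, allow a comparison with little counting error. It was chosen after the values were seen and has no test.

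In both groups, every member was higher in library 6 than in library 5, which held for 32.7% of all genes and 32.3% of those averaging 10 CPM or more. In 6 of 9 library 6 exceeded library 5 at least 2-fold in both on the log2(CPM + 1) scale, which 3.83% of genes met, or 3.55% of those averaging 10 CPM or more. Irf7 was 5.69-fold higher in mCherryLow 6 than in mCherryLow 5 and 4.22-fold higher in mCherryHigh 6 than in mCherryHigh 5. Ifit1 was 5.02-fold and 3.01-fold higher, and Stat2 4.04-fold and 2.34-fold. Isg15 was 2.96-fold and 3.12-fold higher and Rsad2 2.67-fold and 2.46-fold. Irf9 (2.06-fold and 1.57-fold) and Ddx58 (1.95-fold and 1.67-fold) differed least. The median log2 difference over the members was 1.63 in mCherryLow and 1.25 in mCherryHigh, beside 0.03 and 0.06 over all genes.

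Other interferon genes also differed between these libraries. Of 42 further genes induced by type I interferon, 39 were higher in library 6 in both groups and 18 at least 2-fold, with medians of 1.01 and 1.45. Of 20 genes induced mainly by interferon gamma, 19 were higher in both and 9 at least 2-fold, with medians of 1.58 and 1.21. Of the 9 receptors and Janus kinases, 3 were higher in both. Among markers of other cells, 4 of 11 macrophage and monocyte genes, 0 of 3 T and NK cell genes, 1 of 7 endothelial genes and 4 of 10 epithelial genes were higher in both, with 0 at least 2-fold in both. Of the other marker lists, 4 of 4 neutrophil genes (1 at least 2-fold in both), 6 of 8 fibroblast and pericyte genes (1 at least 2-fold), 3 of 5 plasmacytoid dendritic cell genes, 1 of 5 B cell genes and 1 of 4 alveolar and airway genes were higher in both. Their part in the pattern was not tested. By the library codes in the description field of the labels, mCherryLow 5, mCherryLow 6 and mCherryHigh 5 share a code prefix, and mCherryHigh 6 has another. The prefixes of the sample titles are separate from these codes and follow the reporter group. What the label numbers stand for is not given in the labels, and 1 library of each kind allows no check by replicates.

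**Figure D3:**
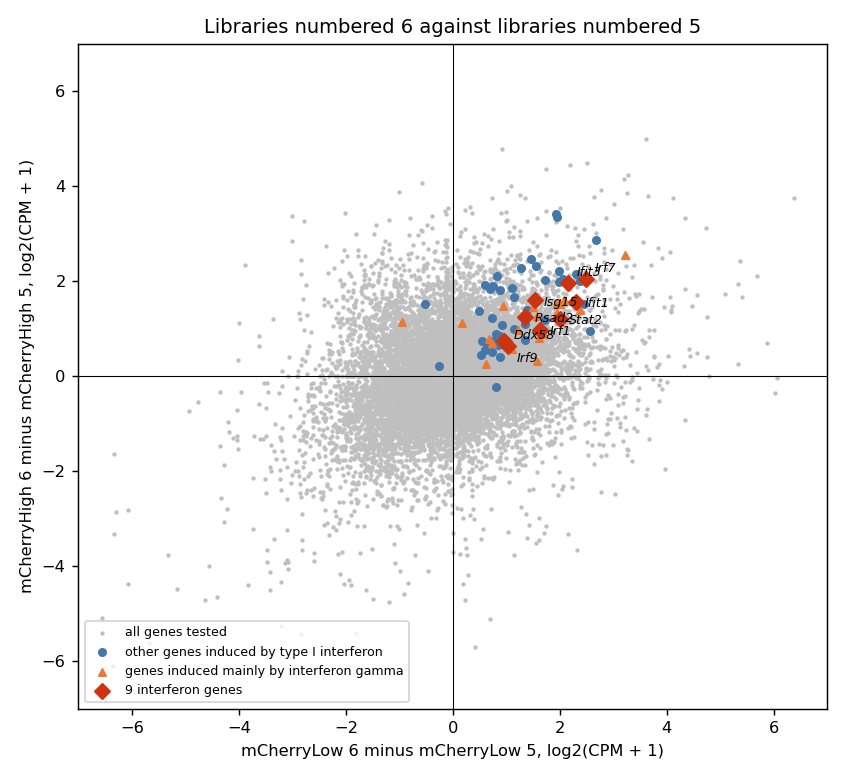
Difference between libraries numbered 6 and 5 on the log2(CPM + 1) scale in mCherryLow (horizontal axis) and mCherryHigh (vertical axis), each point a gene: all 15437 tested genes in grey, genes induced by type I interferon as circles, those induced mainly by interferon gamma as triangles and the 9 members as diamonds. All 9 members lie above 0 on both axes, which holds for 32.7% of genes.

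Levels of different genes were set side by side per kilobase of exon. The length counts every annotated exon of a gene, so the scale is rough. Isg15 had the highest mean level of the members in mCherryLow (71.8 CPM per kb) and DTC (41.8). In mCherryHigh it stood at 48.4 CPM per kb, behind Ifit1 at 61.4. In mCherryLow, Ifit1 followed at 40.7, then Stat2, Irf7, Irf1 and Ddx58 within 22.2 to 25.9, Irf9 at 17.0, Ifit3 at 8.50 and Rsad2 at 4.51 CPM per kb. The libraries of Isg15 (36.6 to 109 CPM per kb) and Ifit1 (16.4 to 82.2) overlapped, so their order in mCherryLow is within the spread. The same holds in mCherryHigh, with 0 to 110 for Isg15 and 24.9 to 84.2 for Ifit1. In DTC, Irf1 (36.3) stood next to Isg15, while Ifit1 was at 12.4, Stat2 at 8.26 and Irf7 at 6.94 CPM per kb. Irf1 in DTC ranged over 21.2 to 45.9 CPM per kb and Ifit1 over 8.99 to 17.1, so these 2 did not overlap. Isg15 in DTC ranged over 7.16 to 61.4, so its order with Irf1 is within the spread.

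The rest of the pathway was read from lists of genes outside the 9. Among the ligands, Ifnb1, the gene for interferon beta, had 0.488, 0 and 0.422 CPM in mCherryLow 1, 5 and 6 and 1.55, 0.612 and 2.45 CPM in mCherryHigh 1, 5 and 6. It had 21.3, 19.97 and 28.1 CPM in DTC 1, 2 and 3. DTC was higher than every other library, and Ifnb1 rose against mCherryLow (limma adjusted p = 0.000430) and mCherryHigh (limma adjusted p = 0.00450) in every alternative that could be fitted. Ifna4 had 12.2, 2.92 and 9.74 CPM in DTC 1, 2 and 3 and at most 0.488 CPM in the other libraries, and rose in both comparisons (limma adjusted p = 0.00391 and 0.00773), though not under quantile normalization. Ifna13, with 1.52 to 4.33 CPM in DTC and at most 0.102 elsewhere, also rose (limma adjusted p = 0.00593 and 0.0274), but the call against mCherryHigh held in 6 of 11 alternatives and was lost without mCherryHigh 5 or mCherryHigh 6. Its DTC values, and that of Ifna4 in DTC 2, rest on few reads. They lay below the 3-read limit of 4.66 CPM in mCherryHigh 1, so the 0 there does not show a lower level. Ifna2, Ifna12 and Ifnk overlapped between groups or were near the floor. Olfactory receptor genes, which are silent in most tissues, averaged 0.123 to 3.04 CPM over 375 genes in the sorted libraries and 4.17 to 10.9 CPM in DTC. Of the 375, 20 had a DTC mean at or above that of Ifnb1 (23.1 CPM) and 132 at or above that of Ifna4. In DTC against mCherryLow, limma called 206 of 222 tested olfactory genes higher (median log2 difference 2.93). Against mCherryHigh it called 160 of 251 higher (median 2.43). Of 5 ligands tested, 3 were called higher in each comparison, where 34.2% and 23.0% of all genes were. Between the sorted groups, 0 of 6 ligands and 32 of 375 olfactory genes reached the filter. The ligands, and many olfactory genes, were therefore tested only through their DTC values. The shares called higher are in part fixed by that filter. The part of the olfactory background in the ligand values was not tested. Nor was it for other genes that were low in mCherryLow, such as Tlr7, Ciita and the T and NK cell markers.

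Upstream of the members, Jak1, the kinase used by all interferon receptors, fell from 296 ± 33.9 CPM in mCherryLow to 127 ± 26.2 in DTC (SD, n = 3 each; log2 difference −1.22, limma adjusted p = 0.0110). In that comparison Jak1 was the only one of 9 receptor and kinase genes called by limma as deposited. That is 11.1% of the list, near the 8.87% of all genes that limma called lower. Median-of-ratios scaling gave 3 lower calls in the list, beside 3010 of 18701 genes. edgeR gave 4, beside 16.6% of all genes, and DESeq2 gave 3, beside 15.7%. The Jak1 call against mCherryLow was lost without DTC 1 and under quantile normalization, with a largest limma adjusted p of 0.106. Against mCherryHigh, limma called 3 of the 9 lower, Ifngr2, Jak1 and Tyk2. That is 33.3% of the list, beside 7.19% of all genes. These calls held in 10, 13 and 9 of 15 alternatives, and 0 of the list were called under quantile normalization. Mavs, the adaptor that carries the signal of RIG-I, had 110, 70.7 and 126 CPM in mCherryLow 1, 5 and 6 and 9.89, 38.5 and 16.2 CPM in DTC 1, 2 and 3, and fell by 2.37 (limma adjusted p = 0.00352). Its call held in all 15 alternatives. Myd88 and Trim25 were the other 2 of 14 sensor and adaptor genes called lower, and both calls were lost without mCherryLow 6 or DTC 1. With Mavs they are 21.4% of that list, where 8.87% of all genes were called lower. Tlr7, a sensor of endosomal RNA found in plasmacytoid dendritic cells and macrophages, was called higher, though not under quantile normalization. Irf8, a factor of macrophages and dendritic cells, had 9.26, 3.66 and 8.18 CPM in mCherryLow 1, 5 and 6 and 71.5, 104 and 115 CPM in DTC 1, 2 and 3, and rose by 3.66 (limma adjusted p = 0.000446). Usp18, which removes ISG15 from proteins and restrains the receptor, fell from 130 ± 60.7 CPM in mCherryHigh to 18.6 ± 6.61 in DTC (SD, n = 3 each; −2.65, limma adjusted p = 0.00422). Against mCherryLow, 0 of the 6 brakes passed in limma (Socs1 alone had an unadjusted p under 0.05). There edgeR called 3 of the 6 lower, beside 16.6% of all genes, and DESeq2 1, beside 15.7%.

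Downstream, 42 further genes induced by type I interferon had a median difference of −0.13 between DTC and mCherryLow, with 3 called higher and 6 lower. Other settings gave fewer higher calls and more lower ones: 0 and 7 with quantile normalization, 1 and 9 with median-of-ratios scaling, 0 and 11 with edgeR and 0 and 9 with DESeq2. Over all 18701 genes these counts were 2264 and 2036 with quantile normalization and 5647 and 3010 with median-of-ratios scaling. They were 4559 and 3098 (16.6% lower) with edgeR and 5142 and 2945 (15.7% lower) with DESeq2. On the scale as deposited, the 3 higher were 7.14% of the list, where 34.2% of all genes were called higher, and the 6 lower were 14.3%, where 8.87% were. Sp100, a nuclear body protein, fell from a mean of 103 to 30.6 CPM (limma adjusted p = 0.00612) and kept its call in all 15 alternatives. Lgals3bp, a secreted glycoprotein, fell from 747 ± 294 to 141 ± 145 CPM (SD, n = 3 each; limma adjusted p = 0.0101), with 11.9 CPM in DTC 3. Its call was lost under quantile normalization (limma adjusted p = 0.0507). Slfn5 was the largest of the 3 higher, from 3.37 to 23.5 CPM. Its call was lost under quantile normalization, without DTC 1, with edgeR and with DESeq2. Against mCherryHigh, 0 of the 42 were called higher by limma, edgeR or DESeq2, where limma called 23.0% of all genes higher. Of the 42, limma called 2 lower (Parp12 and Lgals3bp), which is 4.76%, beside 7.19% of all genes. edgeR and DESeq2 each called 8 lower, beside 10.8% and 10.7% of all genes. The limma median of the 42 was −0.15.

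Genes induced mainly by interferon gamma had a median difference above 0. Of 20 tested, 8 were called higher in DTC than in mCherryLow and 0 lower, with a median of 1.23 beside 0.59 over all genes. Those 8 are 40.0% of the list, near the 34.2% of all genes called higher (24.2% of those averaging 10 CPM or more), and only 2 were called under quantile normalization. Cxcl9, a chemokine that attracts T cells and that macrophages make in response to interferon gamma, had 7.31, 3.29 and 9.02 CPM in mCherryLow 1, 5 and 6 and 200.2, 197 and 71.4 CPM in DTC 1, 2 and 3 (log2 difference 4.33, limma adjusted p = 0.000403). Ciita, which switches on MHC class II genes, had a mean of 0.963 CPM in mCherryLow and 38.6 ± 5.47 CPM in DTC (SD, n = 3; limma adjusted p = 0.000469). Both calls held in all 15 alternatives, and both genes also rose against mCherryHigh. The list's summed level was 1523, 2388 and 765 CPM in DTC 1, 2 and 3, lowest in the library whose macrophage markers (5317 CPM) and T and NK cell markers (394 CPM) were highest. The parts of RNA from immune or other cells, and of the background seen in olfactory genes, in these values were not tested.

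**Figure D4:**
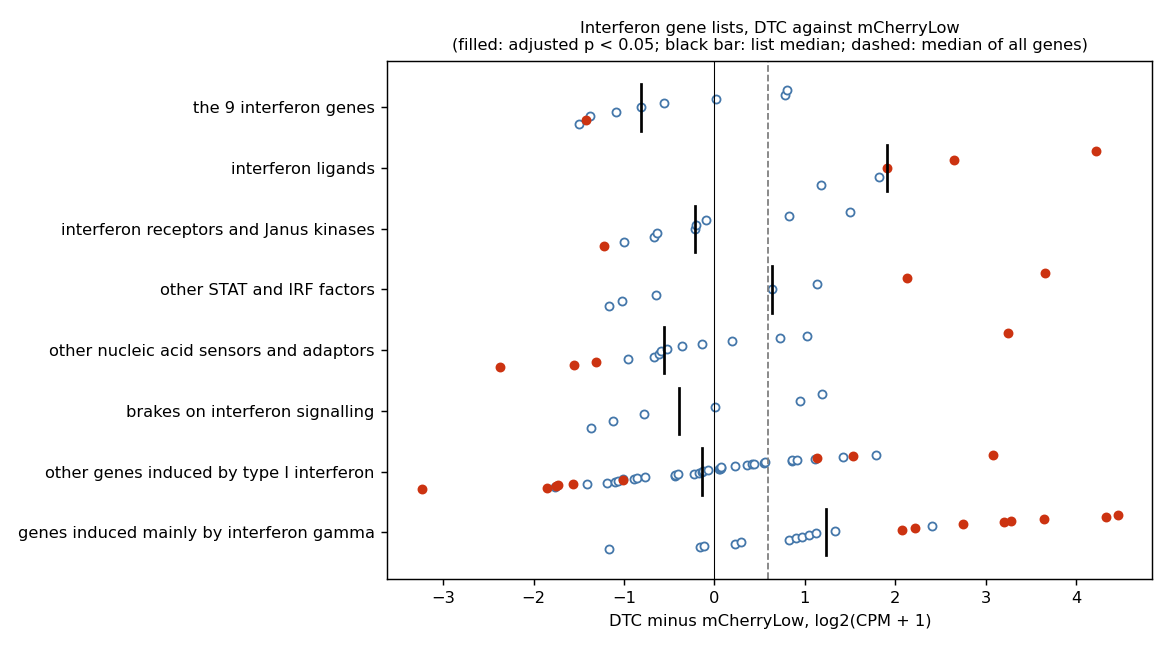
Differences between DTC and mCherryLow on the log2(CPM + 1) scale for each tested gene of the interferon lists, with 1 strip per list a bar at the list's median, filled points for a limma adjusted p under 0.05 and a dashed line at the median of all genes. The 9 members have a median of −0.81, genes induced by type I interferon −0.13 and genes induced mainly by interferon gamma 1.23, beside 0.59 over all genes.

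Genes outside the members with the most similar profile over the 9 libraries were ranked by the root mean square distance from the members' mean profile on the centred log2(CPM + 1) scale. The 8 nearest were Ube2q2, Wwtr1, Mbnl2, Fbxo42, Serpinb6a, Ubxn1, Ube2b and Rab5a, at distances of 0.27 to 0.36. None of the 8 is in the interferon lists, and the members themselves lay 0.46 (Ddx58) to 1.66 (Isg15) from their own mean. Wwtr1, the transcriptional coactivator TAZ, had 131, 111 and 441 CPM in mCherryLow 1, 5 and 6, 141, 197 and 430 CPM in mCherryHigh 1, 5 and 6, and 107, 114 and 109 CPM in DTC 1, 2 and 3. In both sorted groups it was highest in the library numbered 6.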

How the data were processed

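RNA of 9 libraries in 3 groups was extracted with the RNAqueous-Micro kit, copied to cDNA with a SMART-seq kit and made into libraries with Nextera XT, per the labels' protocols. Reads were mapped to mm9, per the submitters' processing notes. Aligner and counter: not given in the sources used here. CPM were deposited by the authors for 24012 genes in 9 columns, with 0 columns unmatched. All values were whole multiples of 1 read within 0.01 read, so whole reads and totals (643748 to 11861241) were recovered.

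For each comparison, limma 3.58.1 (R 4.3.3) tested log2(CPM + 1) two-sided with its variance trend, on genes reaching 1 CPM in 3 of 6 libraries. Adjustment was by Benjamini-Hochberg over all tested genes at 0.05, for differences between libraries of 3 against 3. Alternatives were other pseudocounts and filters, 2 scalings, 1 fit of all 9 libraries, a replicate block, the code prefix as a term and leaving out each library. After the data were seen, count tests of the recovered reads (edgeR 4.0.16, DESeq2 1.42.0) and libraries 5 and 6 alone were added. Intervals and floors cover counting error only. The limma fit was tested on simulated counts, and the other steps were not.

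The members and lists were chosen with earlier results of these data known. Named genes are the 9 members, up to 4 genes per interferon list with the smallest p in DTC against mCherryLow and 2 in mCherryHigh against mCherryLow, every ligand above 0, the leading or absent markers and the 8 genes most alike; Usp18 in DTC against mCherryHigh, Parp12, Ifit3b and the olfactory receptor genes were added after values were seen. Of 225 list symbols, 195 were found; the rest are not analysed here, and 1 result is not reported here. Exon lengths and windows of 50 bases come from GENCODE annotation of a later build than mm9, and promoters from RefSeq GRCm38.p6.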

Additional observations from a re-analysis of the deposited data

How the results depend on the processing

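For the members, alternatives left 112, 113 and 149 results on the same side of the threshold and with the same sign in DTC against mCherryHigh, DTC against mCherryLow and mCherryHigh against mCherryLow. The number of members called in DTC against mCherryLow, 1 in the report, was 0 with no filter, 0 with quantile normalization, 3 with median-of-ratios scaling, 4 with edgeR and 4 with DESeq2, and 0 to 2 when single libraries were left out. It was 0 without mCherryLow 1, mCherryLow 6 or any DTC library, and 2 without mCherryLow 5. In DTC against mCherryHigh the 4 members became 2 with quantile normalization and 1 to 3 without single libraries, with 1 without mCherryHigh 6 and 2 without DTC 1 or DTC 3. Over all genes, quantile normalization gave 4300 calls in place of 8064 against mCherryLow and 3150 in place of 5949 against mCherryHigh. Leaving out single libraries gave 3628 to 7008 and 2538 to 6997. DESeq2 called 148 genes between mCherryHigh and mCherryLow in place of 0. Stat2 in DTC against mCherryLow was lost with no filter (limma adjusted p = 0.0516) and quantile normalization (0.0737). In DTC against mCherryHigh, quantile normalization lost Irf7 (limma adjusted p = 0.0622) and Irf9 (0.109), no filter lost Irf9 (0.0572), and 1 fit of all libraries lost Irf7 (0.0571). The cause of these changes was not tested.

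Signs turned for values that had not passed. In mCherryHigh against mCherryLow, Stat2 was −0.27 with the code prefix in the fit, −0.45 without mCherryLow 5, −0.18 without mCherryHigh 6 (up to 0.55 without mCherryLow 6), −0.084 with edgeR and −0.11 with DESeq2. Ddx58 was −0.095 with median-of-ratios scaling, −0.19 with the code prefix, −0.18 without mCherryLow 1, −0.07 without mCherryLow 5, −0.31 without mCherryHigh 6 (up to 0.42 without mCherryHigh 1), −0.033 with edgeR and −0.041 with DESeq2, and Irf9 was −0.0061 in libraries 5 and 6 alone. Ifit3 in DTC against mCherryLow was −1.24 with quantile normalization, −0.30 with median-of-ratios scaling, −0.62 without mCherryLow 5, −0.54 without DTC 2 (up to 0.56 without DTC 3), −0.44 with edgeR and −0.31 with DESeq2. In DTC against mCherryHigh, Irf1 was 0.19 with quantile normalization, 0.09 without mCherryHigh 1, 0.02 without mCherryHigh 6 and 0.22 without DTC 3 (down to −0.47 without mCherryHigh 5). Isg15 was −1.02 without mCherryHigh 1 (up to 2.17 without mCherryHigh 6), −0.70 with edgeR and −0.48 with DESeq2, and Rsad2 was 0.02 without mCherryHigh 1 and 0.051 without mCherryHigh 6 (down to −0.57 without mCherryHigh 5).

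The label numbers 1, 5 and 6 recur in mCherryLow and mCherryHigh. Deviations of same-numbered libraries correlated across genes at −0.20, −0.02 and 0.27, so the numbers were not taken to pair the samples, and not every library correlated best with its own number. With the number as a replicate block, limma called 0 members and 0 genes. The shallow libraries, mCherryHigh 1 and DTC 3, limit the low members most: 3 reads are 4.66 and 3.25 CPM there. With 3 libraries a group, a difference that missed the threshold is not shown to be absent.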
